A study of Mus musculus with 19 samples.

Results

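The lectin, SURF4, ERGIC and cornichon receptors are membrane proteins, with 1 soluble partner, that move selected cargo out of the endoplasmic reticulum (ER). They were taken by gene symbol as the ER export receptors outside the p24 family, and 10 of the 19716 genes in the deposited table were members: Lman1, Mcfd2, Lman2, Lman2l, Surf4, Ergic1, Ergic3, Cnih1, Cnih4 and Yif1a. All 10 passed the filter on low values. RNA-seq was done on mouse embryonic fibroblasts of a Sec24D knockout line, so the controls lack SEC24D as well. Sec24D is 1 of the 4 SEC24 paralogs, the subunits of the COPII vesicle coat that bind cargo and cargo receptors. There were 4 libraries from cells given 50 nM scrambled siRNA, 5 from cells given siRNA against Sec24B (Sec24B knockdown), 5 from cells given 150 nM scrambled siRNA, and 5 from cells in which Sec24A, Sec24B and Sec24C were all targeted (triple knockdown). All groups are labelled 48 h. The labels' protocol states 50 nM for SEC24 siRNA and leaves unsaid whether that holds per siRNA. The triple knockdown was set against 150 nM scrambled siRNA, as in the authors' deposited table. The labels do not say whether the line is a single clone or whether replicates were separate cultures, so p-values measure the spread between these samples, which may be technical.

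A cargo receptor binds its cargo in the ER lumen or membrane, is packed into COPII vesicles through signals that SEC24 recognises, releases the cargo in the ER-Golgi intermediate compartment or Golgi, and is carried back to the ER. LMAN1 (ERGIC-53) is a mannose-binding lectin that works with the soluble calcium-binding protein MCFD2 to export blood coagulation factors V and VIII, and loss of either protein in humans causes a combined deficiency of both factors. Fibroblasts secrete large amounts of matrix protein and use the same early secretory route.

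Upstream sequence is shown for Mcfd2, Yif1a and Ergic3 because their transcripts were higher in both knockdowns. The 250 bases before the RefSeq start (GRCm38.p6) were at chr17:87265948-87266197 on the minus strand for Mcfd2, chr19:5088288-5088537 on the plus strand for Yif1a and chr2:156007778-156008027 on the plus strand for Ergic3. Capitals mark every match to the motifs searched, which are given next.
Mcfd2: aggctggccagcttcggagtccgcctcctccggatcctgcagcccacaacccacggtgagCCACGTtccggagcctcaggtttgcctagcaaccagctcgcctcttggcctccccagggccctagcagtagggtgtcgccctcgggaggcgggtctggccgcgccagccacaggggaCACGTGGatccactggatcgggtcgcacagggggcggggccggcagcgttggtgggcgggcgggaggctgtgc
Yif1a: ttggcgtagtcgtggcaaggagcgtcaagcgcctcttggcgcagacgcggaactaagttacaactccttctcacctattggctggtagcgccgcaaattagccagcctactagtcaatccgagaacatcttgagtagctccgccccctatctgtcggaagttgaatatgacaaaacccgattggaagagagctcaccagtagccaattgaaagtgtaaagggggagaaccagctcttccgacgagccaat
Ergic3: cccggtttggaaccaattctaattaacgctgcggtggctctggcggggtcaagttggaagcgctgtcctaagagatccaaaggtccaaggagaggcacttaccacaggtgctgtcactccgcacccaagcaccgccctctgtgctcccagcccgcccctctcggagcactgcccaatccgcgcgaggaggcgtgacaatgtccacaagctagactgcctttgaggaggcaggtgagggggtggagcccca

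Windows of 300 bases (250 before and 50 after the start) were searched on both strands in 32851 RefSeq promoters, which included 9 of the 10 members; Lman1 is named only. The ER stress elements ERSE and ERSE-II were in 0.119% and 0.0365% of all promoters and in 0 of the 9 members. The UPRE core TGACGTGG was in 0.676% and the C/EBP-ATF site TGATGNAAT in 0.965% of all promoters, and each was in 0 of the 9. The short word CCACGT, part of several stress elements, was in 8.31% of all promoters and in 1 member, Mcfd2, at bases -190 to -185 and -72 to -67 from its start. The E-box CACGTG was in 7.15% of all promoters and in the same member at bases -73 to -68, where it overlaps the second CCACGT, read on the other strand. The GC content of the whole window was 72.3% for Mcfd2, 54.0% for Yif1a and 62.7% for Ergic3, against a median of 52.7% over all promoters, and the windows held 30, 21 and 20 CpG dinucleotides against a median of 7. A match is a description of letters, and its absence says nothing about a factor.

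Libraries held 9101855 to 19709672 reads, and values are normalised read counts. The Sec24b transcript averaged 479 normalised counts in the Sec24B knockdown and 1114 in its control, and 509 and 1222 in the triple knockdown and its control. Sec24c averaged 809 against 2795, and Sec24a 487 against 800, in the triple knockdown and its control. Sec24d transcripts averaged 428 to 465 in the 4 groups, and the part of the gene that was deleted is not given, so this checks nothing. Fibroblast markers were abundant (10 of 11 measured, summed level 317793 to 562137), and all measured markers of other cell types were low (epithelium 19.9 to 54.6, endothelium 21.4 to 80.2, summed); no measured marker was at 0 in every library. The summed fibroblast level was 317793 to 344539 in the triple knockdown and 462192 to 562137 in its control. Of the 10 markers, 5 passed as lower, 0 as higher and 5 did not pass, beside 34% of all genes (17.2% lower). Col1a1 averaged 84994 against 165176, Vim 64871 against 73535 and Dcn 656.5 against 494.1. The part of this level in the results below was not tested. In bulk samples fewer cells of a type and less RNA per cell cannot be told apart. Replicates 1 and 5 of the triple knockdown stood apart from the other 3. They had the lowest levels of the siRNA targets. Sec24a was at 299 and 403 against 572 to 583 in the other 3. Sec24b was at 369 and 436 against 531 to 606, and Sec24c at 775 and 752 against 829 to 858. Sec24d, which no siRNA targeted, was also lowest there, at 223 and 440 against 491 to 563. Replicates 1 and 5 were the 2 lowest for 29% of the 6433 genes with a mean at least that of the lowest member. They were the 2 highest for 33.2%. The GC-rich genes of replicates 1 and 5 exceeded their GC-poor genes by 0.13 and 0.29 (log2, relative to the mean of their own group). The other 3 lay between -0.19 and -0.10. The part of the target levels or of GC content in the results was not tested. Replicate 4 of the 50 nM control was at 0.26, with the other 3 between -0.11 and -0.05; without it the same 5 members passed in the Sec24B knockdown as with it. For the 5 members that passed in the triple knockdown, the change is below also given without replicates 1 and 5; for genes outside the members it is not.

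With Sec24b depleted, Mcfd2, Ergic3 and Yif1a rose and Ergic1 and Cnih1 fell, with changes between -20.2% and 31.8%. This is 5 of 10 members, beside 14.6% of all 19635 genes tested (7.53% higher and 7.08% lower) and 23.1% of the 6433 genes with a mean at least that of Lman2l, the lowest member. With Sec24a, Sec24b and Sec24c depleted, Mcfd2, Lman2l, Ergic3 and Yif1a rose and Ergic1 fell, again 5 of 10, beside 34% of all genes tested (16.8% higher and 17.2% lower) and 53% of the 6433. The share of members that passed in the triple knockdown was therefore close to that of genes at similar levels. The median log2 fold change of the 10 members was 0.05 after Sec24b depletion and 0.14 after triple depletion, where all genes tested had medians of 0.01 and 0.01. Lman1, Lman2, Surf4 and Cnih4 did not pass in either knockdown. The libraries of knockdown and control did not overlap for 5 of 10 members in each knockdown, the same 5 that passed. Non-overlap was found for 18.4% and 21.8% of all genes, and for 30.1% and 37.1% of the 6433. It rests on the same values as the test and is no separate support.

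**Figure D1:**
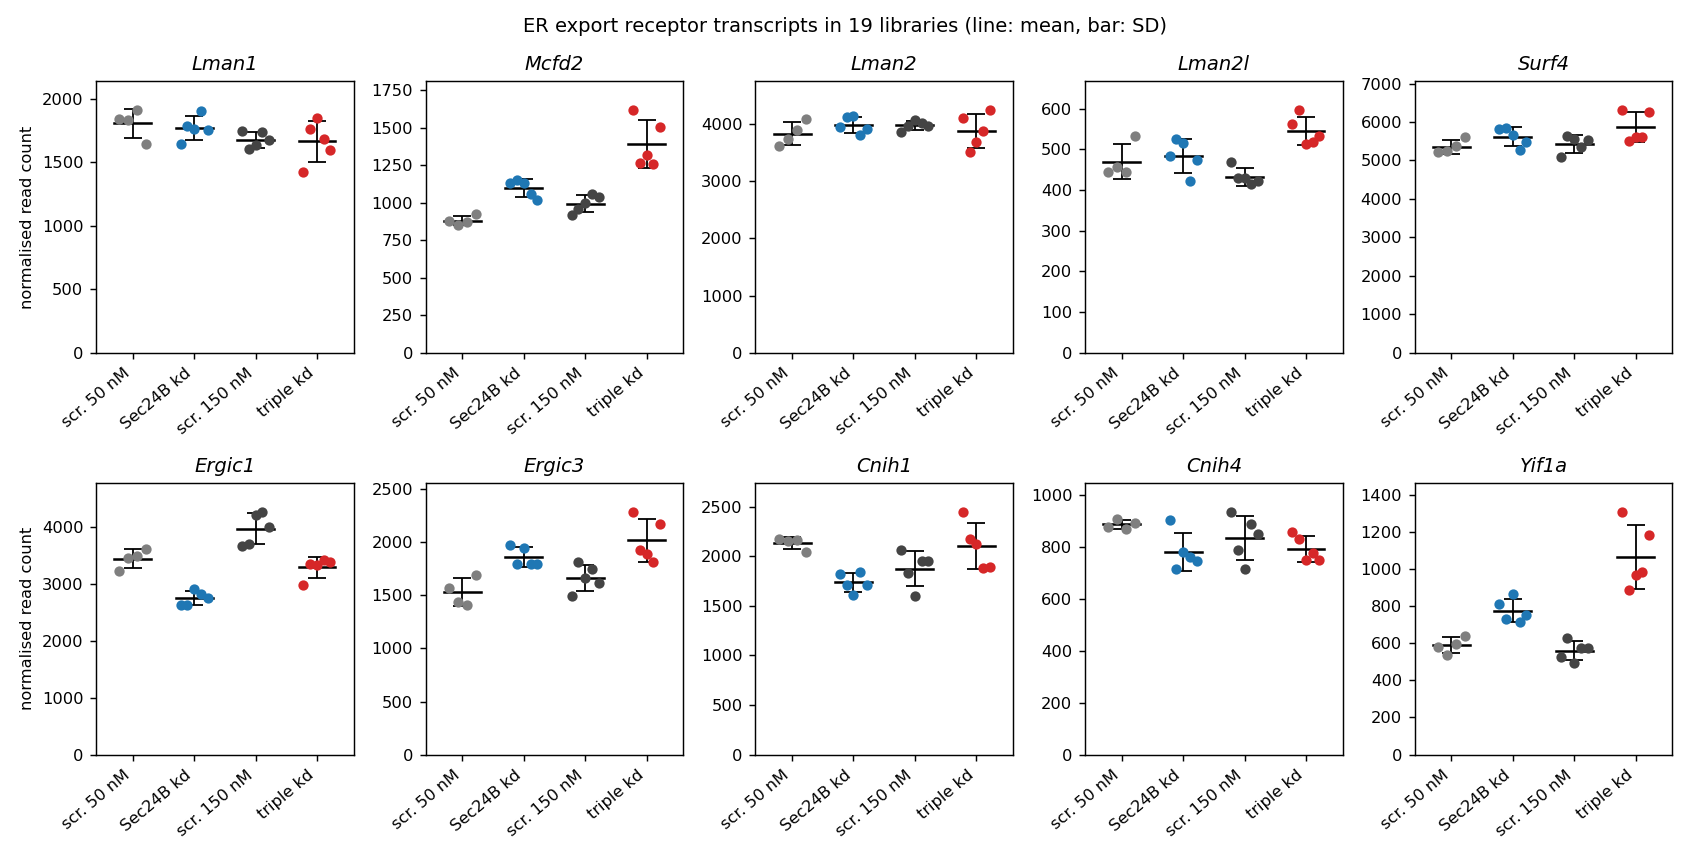
Normalised read counts (vertical axes, from 0) of the 10 receptor transcripts in the 4 groups of libraries; points are libraries, horizontal lines means and bars SD. Yif1a shows the widest separation, with 888 to 1308 in the triple knockdown and at most 640 in any scrambled library, while Lman1 and Lman2 overlap in all groups.

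Yif1a (chr19:5088538-5092881, plus strand, GRCm38) encodes a membrane protein of the Yip1-interacting factor family that cycles between ER and Golgi, and it changed the most. Its normalised count was 581, 535, 596 and 640 in the 50 nM scrambled libraries and 814, 731, 864, 716 and 754 in the Sec24B knockdown. It was 525, 627, 494, 572 and 576 in the 150 nM scrambled libraries and 1308, 888, 968, 985 and 1182 in the triple knockdown. Every knockdown library exceeded every one of the 9 scrambled libraries, and the triple knockdown libraries all exceeded the Sec24B knockdown libraries. The log2 fold change was 0.40 ± 0.10 (SE) in the Sec24B knockdown (31.8% higher, adjusted p = 0.00502) and 0.92 ± 0.09 in the triple knockdown (89.4% higher, adjusted p = 1.433e-08). The 2 effects, each against its own control, differed by 0.52 ± 0.13 (95% interval 0.25 to 0.79, adjusted p = 0.00659). Replicates 1 and 5 were the highest of the triple knockdown; without them the change was 0.76 (adjusted p = 2.067e-09).

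Mcfd2 (chr17:87254443-87265935, minus strand) encodes the partner that links LMAN1 to its cargo. It had 881, 852, 869 and 922 normalised counts with 50 nM scrambled siRNA and 1134, 1150, 1132, 1059 and 1016 in the Sec24B knockdown. It had 921, 957, 1000, 1060 and 1036 with 150 nM scrambled siRNA and 1617, 1262, 1321, 1261 and 1504 in the triple knockdown. All triple knockdown libraries lay above all 9 scrambled libraries, whereas the Sec24B knockdown libraries lay above their own control but overlapped the 150 nM control. The log2 fold change was 0.32 ± 0.07 in the Sec24B knockdown (24.5% higher, adjusted p = 0.00301) and 0.48 ± 0.07 in the triple knockdown (39.5% higher, adjusted p = 3.665e-06), or 0.37 without replicates 1 and 5. The effects differed by 0.16 ± 0.10 (95% interval -0.04 to 0.36), which did not pass (adjusted p = 0.287).

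Lman1 (chromosome 18), the lectin of the same complex, did not follow its partner. Its normalised count ranged from 1643 to 1911 in the 50 nM control, 1643 to 1903 in the Sec24B knockdown, 1602 to 1744 in the 150 nM control and 1428 to 1852 in the triple knockdown, so all groups overlapped. The log2 fold changes were -0.03 (95% interval -0.17 to 0.11) and -0.02 (-0.15 to 0.12), and the second turned to 0.07 without replicates 1 and 5. Per kilobase of annotated exon, the ratio of Lman1 to Mcfd2 was 0.571 to 0.704 and 0.518 to 0.607 in the 50 nM and 150 nM scrambled libraries. It was 0.464 to 0.576 in the Sec24B knockdown and 0.283 to 0.449 in the triple knockdown, whose libraries all lay below every other library.

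Lman2 and Lman2l encode VIP36 and its ER-resident relative VIPL, lectins of the LMAN1 family. Lman2l (chr1:36419871-36445271, minus strand) was the least abundant member, with 444, 457, 443 and 534 normalised counts with 50 nM scrambled siRNA and 484, 526, 515, 421 and 473 in the Sec24B knockdown. It had 469, 429, 428, 414 and 421 with 150 nM scrambled siRNA and 562, 596, 513, 519 and 532 in the triple knockdown. The triple knockdown libraries all exceeded their own control, and 1 library of the 50 nM control lay within their range. The log2 fold change was 0.33 ± 0.07 in the triple knockdown (25.8% higher, adjusted p = 0.000701; 0.32 without replicates 1 and 5) and 0.04 ± 0.08 in the Sec24B knockdown. The difference of 0.29 ± 0.10 between the effects did not pass (adjusted p = 0.0611), and it passed in 5 of 29 alternative settings, 2 of which left out replicate 1 of the 150 nM control or replicate 2 of the Sec24B knockdown (adjusted p = 0.0432 and 0.0471). Lman2 (chr13:55343833-55362783, minus strand) lay between 3506 and 4242 in the 2 extreme libraries, both of the triple knockdown, with log2 fold changes of 0.06 (95% interval -0.06 to 0.18) and -0.04 (-0.15 to 0.07).

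Surf4 (chr2:26920040-26933928, minus strand) encodes the homologue of yeast Erv29, a receptor for many soluble cargoes including apolipoprotein B. It was the most abundant member per kilobase of annotated exon in every group. Its normalised count was 5208 to 5603 and 5282 to 5856 in the 50 nM control and the Sec24B knockdown, and 5083 to 5649 and 5500 to 6308 in the 150 nM control and the triple knockdown. The groups overlapped, and the log2 fold changes were 0.07 (95% interval -0.05 to 0.19) and 0.11 (-0.003 to 0.22; adjusted p = 0.131), the second being 0.04 without replicates 1 and 5 of the triple knockdown (adjusted p = 0.611). Of the 50-base words in its exons, 2.85% are shared with the adjoining gene Surf2, so a small part of its reads could be counted for either.

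The Ergic1 and Ergic3 transcripts changed in opposite directions. Ergic1 and Ergic3 (chr17:26561489-26656934 and chr2:156008045-156018279, both on the plus strand) encode membrane proteins that shuttle between the ER and the intermediate compartment, related to yeast Erv41 and Erv46. Ergic1 had 3226, 3452, 3480 and 3610 normalised counts with 50 nM scrambled siRNA and 2619, 2633, 2912, 2817 and 2756 in the Sec24B knockdown. It had 3666, 3700, 4198, 4261 and 3999 with 150 nM scrambled siRNA and 2970, 3337, 3320, 3416 and 3382 in the triple knockdown. The Sec24B knockdown libraries lay below all 9 scrambled libraries, whereas the triple knockdown libraries lay below the 150 nM control and overlapped the 50 nM control. Ergic1 fell by 0.33 ± 0.06 on the log2 scale in the Sec24B knockdown (adjusted p = 0.000511) and by 0.27 ± 0.06 in the triple knockdown (adjusted p = 0.000571; -0.24 without replicates 1 and 5). Against the 9 scrambled libraries taken as 1 control, the triple knockdown change was -0.18 (adjusted p = 0.0240).

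Ergic3 had 1571, 1440, 1410 and 1696 normalised counts with 50 nM scrambled siRNA and 1975, 1794, 1950, 1796 and 1792 in the Sec24B knockdown. It had 1492, 1815, 1663, 1745 and 1614 with 150 nM scrambled siRNA and 2287, 1931, 1891, 1817 and 2175 in the triple knockdown. Each knockdown lay above its own control, narrowly so in the triple knockdown (lowest library 1817, highest control 1815). The log2 fold change was 0.29 ± 0.07 (adjusted p = 0.0089) in the Sec24B knockdown and 0.28 ± 0.07 (adjusted p = 0.00291) in the triple knockdown. The second rested in part on replicates 1 and 5, without which it was 0.18 (adjusted p = 0.0325). The effects differed by -0.01 (95% interval -0.22 to 0.20). Ergic2, which encodes the binding partner of ERGIC3, did not pass in either knockdown (-0.12 ± 0.07 and -0.16 ± 0.07). The ratio of Ergic3 to Ergic2 per kilobase was 4.64 to 6.84 and 6.68 to 7.49 in the 50 nM control and the Sec24B knockdown, which overlapped, and 5.14 to 7.67 and 7.38 to 10.1 in the 150 nM control and the triple knockdown, which also overlapped.

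Cnih1 and Cnih4 encode cornichon proteins, relatives of yeast Erv14 and of the Drosophila protein that exports a TGF-alpha-like growth factor. Cnih1 (chr14:46775567-46788411, minus strand) had 2177, 2150, 2168 and 2038 normalised counts with 50 nM scrambled siRNA and 1820, 1705, 1604, 1840 and 1714 in the Sec24B knockdown. It had 2058, 1826, 1595, 1954 and 1947 with 150 nM scrambled siRNA and 2447, 2171, 2125, 1886 and 1891 in the triple knockdown. The Sec24B knockdown lay below its own control but overlapped the 150 nM control, and the triple knockdown overlapped its control. Cnih1 fell by 0.30 ± 0.08 on the log2 scale in the Sec24B knockdown (adjusted p = 0.00818), and in the triple knockdown its change was 0.16 ± 0.07 (adjusted p = 0.0798). That change passed, at 0.20, on leaving out replicate 1 of the 150 nM control (adjusted p = 0.0440) or replicate 4 or 5 of the triple knockdown (adjusted p = 0.0361 and 0.0386). The effects differed by 0.46 ± 0.10 (95% interval 0.25 to 0.68, adjusted p = 0.00289), one of 2 members, with Yif1a, for which this test passed; it passed for 15.8% of all genes (7.44% higher and 8.38% lower) and 27.7% of the 6433. Against both scrambled groups pooled, the change in the Sec24B knockdown was -0.19 and did not pass (adjusted p = 0.0529).

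Cnih4 (chr1:181144693-181168994, plus strand) had 868 to 908 normalised counts in the 50 nM control, 713 to 902 in the Sec24B knockdown, 715 to 933 in the 150 nM control and 747 to 856 in the triple knockdown. The Sec24B knockdown overlapped its control through replicate 1 alone. The log2 fold change was -0.19 ± 0.08 (adjusted p = 0.1001), and it passed without that library (-0.24, adjusted p = 0.0289) and, with all libraries kept, when only the groups compared were fitted (-0.19, adjusted p = 0.0424). In the triple knockdown the change was -0.07 ± 0.07 (adjusted p = 0.484).

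**Figure D2:**
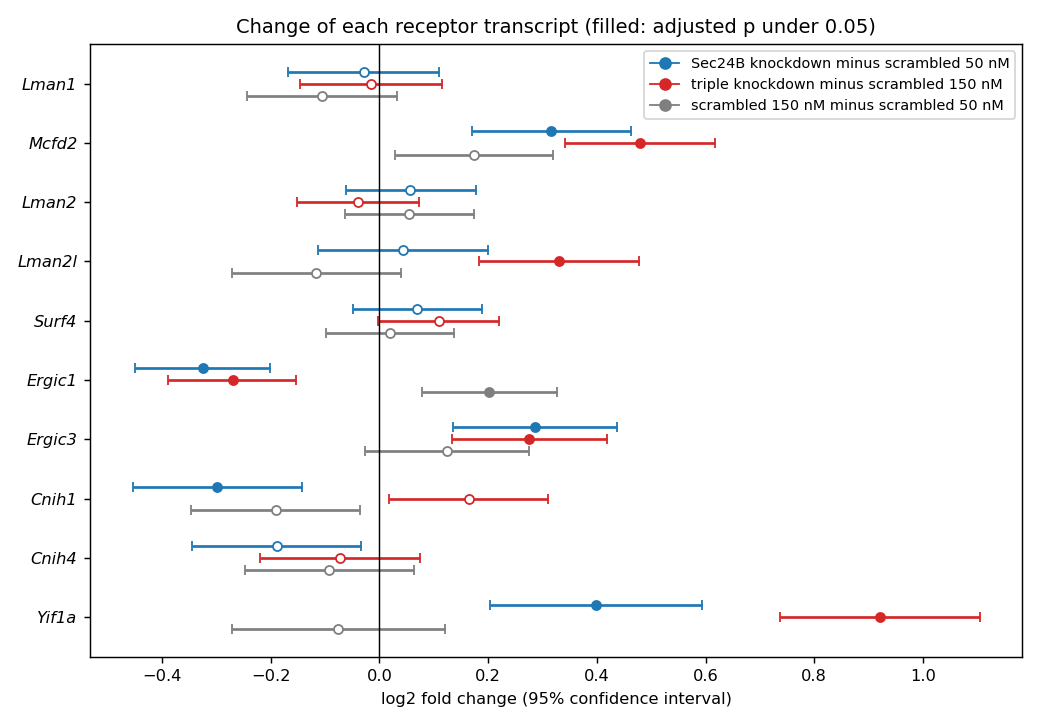
Log2 fold changes (horizontal axis) of the 10 receptor transcripts, with 95% confidence intervals, in the Sec24B knockdown, the triple knockdown and between the scrambled doses; filled points passed an adjusted p of 0.05. Cnih1 lies at -0.30 in the Sec24B knockdown and at 0.16 in the triple knockdown, and Yif1a at 0.40 and 0.92.

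The scrambled groups, compared with each other, differ in the labelled dose of control siRNA. Dose cannot be told apart from any other difference between these groups of libraries. Ergic1 was higher at 150 than at 50 nM by 0.20 ± 0.06 (log2, adjusted p = 0.0357), with no overlap between the libraries. This is 1 of 10 members, beside 8.85% of all genes tested (4.75% higher and 4.1% lower) and 14% of the 6433, and non-overlap was found for 12.7% and 19.7%. The call was lost on leaving out replicate 3, 4 or 5 of the 150 nM group or replicate 1, 2 or 3 of the 50 nM group, with changes between 0.17 and 0.21. The other 9 members did not pass, and their log2 fold changes ran from -0.19 (Cnih1, adjusted p = 0.121) to 0.17 (Mcfd2, adjusted p = 0.134). This comparison shares its control libraries with both knockdown comparisons. In the authors' deposited table the triple knockdown was also compared directly with the Sec24B knockdown, and 4 members had an adjusted p below 0.05: Yif1a (log2 fold change 0.46), Mcfd2 (0.34), Cnih1 (0.28) and Ergic1 (0.26). That direct comparison includes any difference in siRNA dose between the 2 knockdowns, which the labels leave unsaid. Relative to each group's own control, the present fit gave 0.52, 0.16, 0.46 and 0.06 for the same genes.

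Library composition moved along with some of these changes. Genes were split into 4 equal bins by transcript length. In the triple knockdown the bin of shortest transcripts had a median log2 fold change of 0.15 and the bin of longest transcripts -0.14; Yif1a, Ergic3 and Cnih1 are in the first. Between the scrambled doses the median ran from -0.14 in the GC-poorest of 4 bins to 0.12 in the GC-richest. With trends on GC content and length removed from each library, an alternative added after seeing the data, the triple knockdown changes were 0.82 for Yif1a, 0.38 for Mcfd2, 0.36 for Lman2l, 0.18 for Ergic3 and -0.28 for Ergic1, and all passed. Surf4 then passed as well (0.12, adjusted p = 0.00817), and Cnih1 was at 0.02. In the Sec24B knockdown the same 5 members passed, at 0.34 for Yif1a, 0.29 for Mcfd2, 0.22 for Ergic3, -0.36 for Ergic1 and -0.29 for Cnih1. Between the doses Ergic1 no longer passed (0.15, adjusted p = 0.0784) and Mcfd2 did (0.19, adjusted p = 0.0133).

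**Figure D3:**
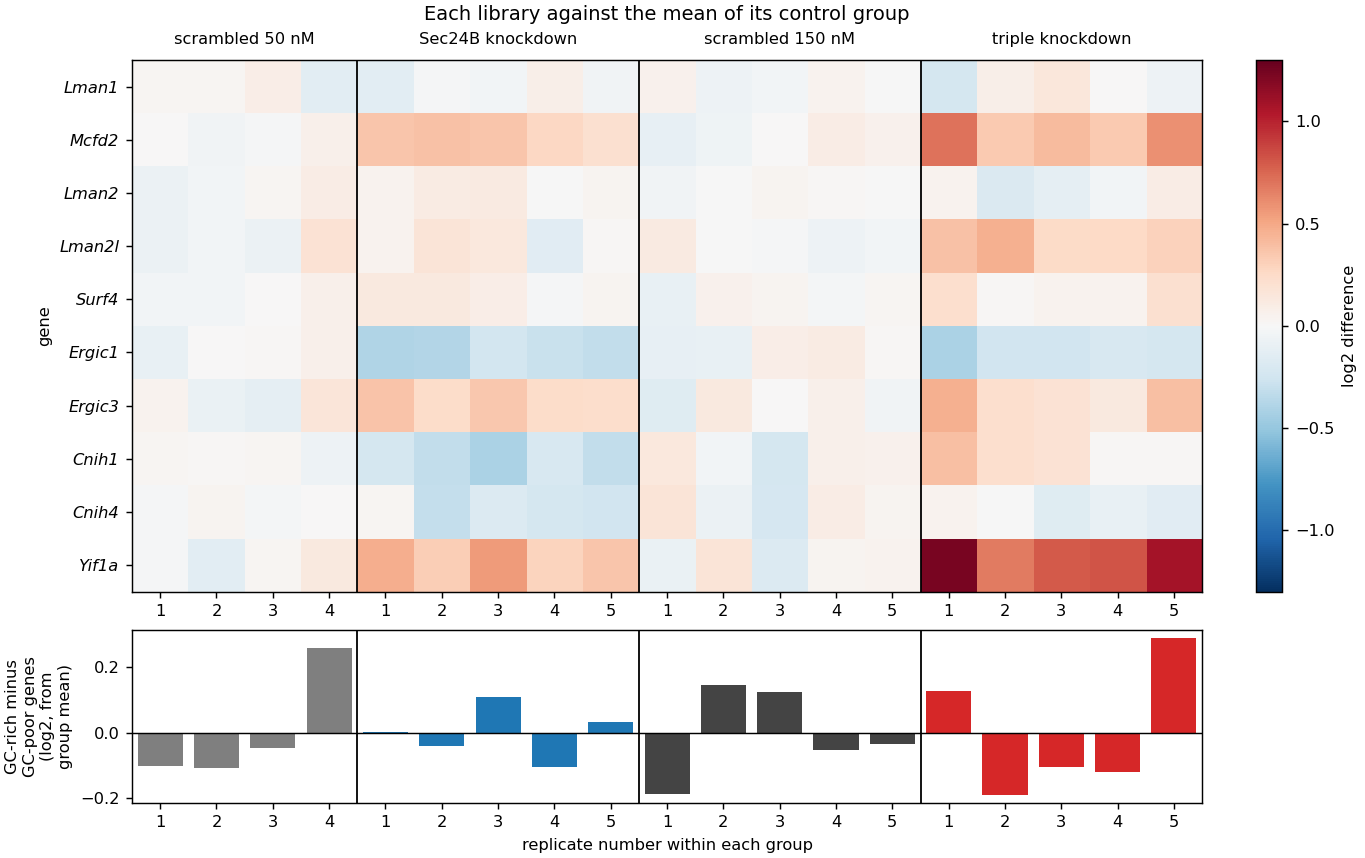
Upper panel, log2 difference of each library (columns, by group and replicate number) from the mean of its control group for the 10 receptor transcripts (rows); lower panel, level of GC-rich minus GC-poor genes in each library (log2, relative to the mean of its own group). Replicates 1 and 5 of the triple knockdown are the deepest for Yif1a and Mcfd2 and are at 0.13 and 0.29 in the lower panel, against -0.19 to -0.10 in the other 3.

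Per kilobase of annotated exon, the order of mean levels with 50 nM scrambled siRNA was Surf4 (1633 ± 55.1 normalised counts per kilobase, SD, n = 4), Cnih1 (1315), Ergic3 (721), Lman2 (484), Ergic1 (387), Mcfd2 (312), Yif1a (311), Cnih4 (234), Lman1 (205) and Lman2l (63.8). Only Mcfd2 and Yif1a overlapped as neighbours in this order. In the triple knockdown the 3 highest and 3 lowest kept their places, and Yif1a followed Ergic3 at 564 ± 91.5 (SD, n = 5), overlapping Mcfd2 at 493, which overlapped Lman2 at 490. Ergic1 came after them at 370.

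The genes most like a member over the 19 libraries were found for the 4 members with the largest changes, as a description; the libraries share groups, depth and composition. Yif1a was most like Slc3a2 (Pearson r = 0.964) and Pck2 (0.963), and Mcfd2 most like Slc35c2 (0.970) and Dpp7 (0.962). For Ergic1, r with Ccn2 was 0.975, and Ccn2 had a log2 fold change of -1.51 in the Sec24B knockdown. Lman2l was most like Dpf2 (0.854) and Nfe2l1 (0.839). These values include the differences between groups. With each group's mean subtracted, r was lower for every pair named. It was 0.827 for Yif1a with Slc3a2, 0.749 with Pck2, 0.846 for Mcfd2 with Slc35c2 and 0.685 with Dpp7. For Ergic1 with Ccn2 it was 0.847, and for Lman2l 0.629 with Dpf2 and 0.454 with Nfe2l1. Slc3a2 encodes the heavy chain of amino acid transporters and is one of the 20 ATF4 and CHOP targets listed, ATF4 and CHOP being transcription factors of the integrated stress response. Of these targets 10 rose and 0 fell in the Sec24B knockdown (median log2 fold change 0.25), and 19 rose and 0 fell in the triple knockdown (median 1.47), for example Trib3 (2.29) and Chac1 (2.02). Between the scrambled doses 0 rose and 9 fell at 150 nM (median -0.24), and the 150 nM libraries are the control of the triple knockdown. Of all genes tested, 14.6% passed in the Sec24B knockdown, 34% in the triple knockdown and 8.85% between the scrambled doses.

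Relatives and partners of the receptors were measured for 17 of 18 genes listed. The counts below, p24 proteins included, stand beside the shares of all genes that passed. These were 14.6% with Sec24b depleted and 34% after triple depletion. For the 6433 genes the shares were 23.1% and 53%. In the Sec24B knockdown 3 rose and 1 fell: Kdelr3 (0.24 ± 0.06, log2), Yipf3 (0.24 ± 0.08) and the sparse Cnih2 (0.71 ± 0.20) rose and Kdelr2 (-0.42 ± 0.07) fell. KDEL receptors return escaped ER proteins from the Golgi. In the triple knockdown 7 rose and 1 fell (median log2 fold change 0.16), among them Yipf3 (0.61 ± 0.07), Yipf5 (0.53 ± 0.06), a Golgi membrane protein that binds YIF1A, and Kdelr3 (0.41 ± 0.05), while Cnih2 fell by 0.76 ± 0.19. Yif1b, the paralog of Yif1a, named after its value was seen, rose by 0.28 ± 0.07. Of the 10 p24 proteins, 1 rose and 2 fell in the Sec24B knockdown and 2 rose and 0 fell in the triple knockdown; Tmed3 rose in both (0.32 ± 0.11 and 0.49 ± 0.10).

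Transcripts of known cargo, which say nothing of its transport, were measured for 15 of 21 genes listed. Beside the counts in this paragraph, 14.6% of all genes passed in the Sec24B knockdown, 34% in the triple knockdown and 8.85% between the scrambled doses. Of the 6433 genes, 23.1%, 53% and 14% passed. In the Sec24B knockdown 2 rose and 2 fell, and in the triple knockdown 1 rose and 5 fell (medians 0.04 and -0.09). Apob, cargo of SURF4, fell by 0.89 ± 0.15 and 1.16 ± 0.14, and Hbegf, a growth factor of the kind cornichon proteins export, fell by 0.51 ± 0.08 and 0.62 ± 0.08. Nucb1, a Golgi calcium-binding protein carried by SURF4, rose by 0.25 ± 0.07 and 0.26 ± 0.06. Between the scrambled doses 4 of the 15 cargo genes were higher at 150 nM and 2 lower, among them Hbegf (0.38 ± 0.08, adjusted p = 0.00436), Nucb1 (0.28 ± 0.07, adjusted p = 0.00888) and Apob (-0.50 ± 0.15, adjusted p = 0.0435), so the controls of the 2 knockdowns differ for these genes. Genes of the unfolded protein response, to whose wider XBP1 programme Lman1 and Surf4 are known to belong, were split: 6 of 20 rose and 6 fell in the triple knockdown, with Herpud1 (1.52 ± 0.07), Hspa5 (1.08 ± 0.08) and Xbp1 (0.77 ± 0.07) higher and Dnajb11 (-0.66 ± 0.05) lower. In the Sec24B knockdown 2 rose and 7 fell.

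**Figure D4:**
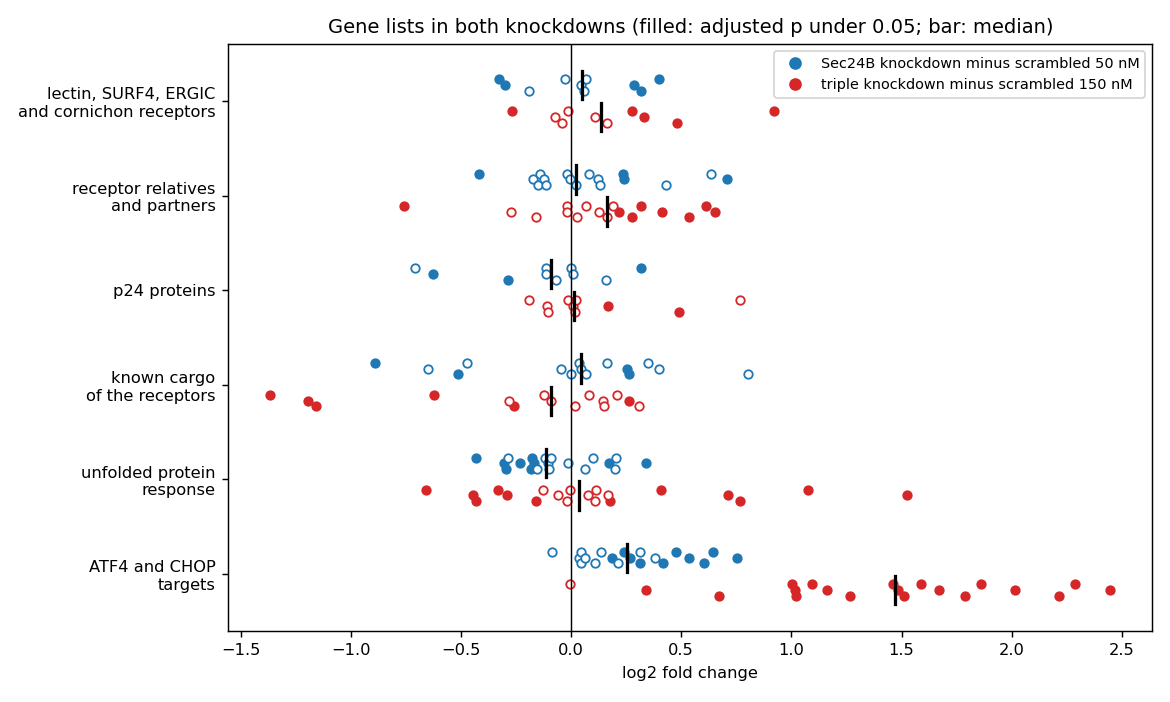
Log2 fold changes (horizontal axis) of the receptors and 5 other gene lists (rows) in the Sec24B knockdown (blue) and the triple knockdown (red); filled points passed an adjusted p of 0.05 and black bars are medians. The receptors lie between -0.33 and 0.92 with medians of 0.05 and 0.14, and the ATF4 and CHOP targets have medians of 0.25 and 1.47.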

How the data were processed

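RNA of Sec24D-knockout mouse embryonic fibroblasts was sequenced in 19 libraries. Per the submitters' processing notes, Trimmomatic 0.27, FastQC 0.10.1, TopHat2 2.0.8 and Partek 6.6 were used; the notes name the human builds hg19 and GRCh37, but 19666 of 19716 gene IDs are in GENCODE M21 (mouse GRCm38), 99% of them with identical start and end. The read counter and strandedness are not given in the sources used here. The deposited values are signal in the form of gene counts that the authors had divided by a factor for each library; dividing by the value of 1 read (0.736 to 1.638) gave whole reads for 100% of values within 0.0055. The authors' deposited log2 fold changes and p-values are quoted only where named.

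All libraries entered 1 model of the 4 groups in limma 3.58.1 (intensity trend; R 4.3.3) on log2(normalised count + 1). Genes that reached 1 in 4 or more libraries were tested (19635; 81 removed); tests were two-sided, adjusted by Benjamini-Hochberg over these genes, with a threshold of 0.05. The plan named edgeR for raw counts and limma for scaled values. On the recovered reads edgeR 4.0.16 called 2928 genes in the Sec24B knockdown, 6665 in the triple knockdown and 1738 between the scrambled doses, against 2868, 6680 and 1737 with limma; DESeq2 1.42.0 was a further alternative. The fit was tested on simulated data. The 10 members are all described; of other lists at most 4 genes with the smallest adjusted p were named, except where stated. Members and lists were chosen with earlier results of these data known. Promoters are from RefSeq (GRCm38.p6). A gene that the rule for likeness picks is not reported here.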

Additional observations from a re-analysis of the deposited data

Results flagged for a closer look

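Of 40 groups of libraries examined (10 members in 4 groups), 3 held a library far from the others of its group; chance alone marks about 1 group in 20. Lman2l was at 533.8 normalised counts in replicate 4 of the 50 nM scrambled libraries, where the other 3 were at 443 to 457, and at 469.1 in replicate 1 of the 150 nM scrambled libraries, where the other 4 were at 414 to 429. Ergic1 was at 2970 in replicate 1 of the triple knockdown, where the other 4 were at 3320 to 3416.

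For 2 members the triple knockdown effect differed from the Sec24B knockdown effect, each against its own control, in the test of the difference itself. The difference was 0.46 (log2) for Cnih1 (adjusted p = 0.00289), which was lower in the Sec24B knockdown and overlapped its control in the triple knockdown. It was 0.52 for Yif1a (adjusted p = 0.00659), which was higher in 5 of 5 libraries of both knockdowns.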

How the results depend on the processing

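The members called numbered 4 to 6 in the Sec24B knockdown, 5 to 6 in the triple knockdown and 2 to 3 for the difference of effects over all alternatives run. Between the scrambled doses they numbered 2 with only the groups compared in the fit and 0 to 1 on leaving out a library; genes called there numbered 902 to 2190 on leaving out a library (1737 with all), with 1140 without replicate 3 of the 150 nM group and 902, 920 and 1042 without replicates 1, 2 and 3 of the 50 nM group. Pooling both scrambled groups as control raised the genes called in the Sec24B knockdown from 2868 to 4470. Fewer libraries were fitted in the first cases and more controls in the last; otherwise the cause was not tested. Signs turned only for changes that did not pass. The Ergic3 difference of effects became 0.002 with edgeR and 0.005 to 0.028 on leaving out single libraries (lowest -0.061). The Lman1 difference became -0.005 with upper-quartile factors and -0.025 to 0.068 on leaving out libraries. Lman1 became 0.029 in the Sec24B knockdown with pooled controls, and in the triple knockdown -0.055 to 0.039 on leaving out single libraries (0.039 without replicate 1) and 0.074 without replicates 1 and 5. With GC and length trends removed, Lman1 was at 0.018 and 0.044 in the Sec24B and triple knockdowns, Lman2 at 0.035 in the triple knockdown and -0.014 between doses, and Surf4 at -0.074 between doses. Deviations of same-numbered libraries correlated at -0.05 to 0.057 within the knockdown and dose comparisons. These correlations were over all genes tested, sparse ones included, and the 2 knockdowns were not correlated with each other. They therefore cannot settle whether the numbers pair libraries, which the labels do not say. With the replicate block 2654, 6644, 1414 and 3108 genes passed in the Sec24B knockdown, the triple knockdown, between doses and for the difference. Without it 2868, 6680, 1737 and 3107 passed. Depth is not low for any member, the lowest averaging 483.3 normalised counts; precision is limited by the 4 or 5 libraries a group.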

Other observations

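Within groups, after subtracting each group's mean, members also varied together over the 19 libraries. Pearson's r, given as a description since the libraries share composition, was 0.822 for Lman2 with Surf4, 0.804 for Mcfd2 with Surf4 and 0.783 for Ergic3 with Yif1a, and -0.802 for Lman1 with Surf4 and -0.768 for Lman1 with Ergic3. In the triple knockdown, replicates 1 and 5 were the 2 highest libraries for 5 of the 10 members (Mcfd2, Lman2, Surf4, Ergic3 and Yif1a) and the 2 lowest for Lman1, beside 33.2% and 29% of the 6433 genes at similar levels.

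Of the 15 COPII coat genes listed, which include the siRNA targets, 1 rose and 4 fell in the Sec24B knockdown, and 6 rose and 4 fell in the triple knockdown. Of all genes tested, 14.6% and 34% passed in these knockdowns, and 23.1% and 53% of the 6433. Sar1b, a GTPase that starts coat assembly, rose by 0.58 ± 0.08 (log2) in the triple knockdown and was at 0.00 ± 0.09 in the Sec24B knockdown.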
